A study of Mus musculus with 16 samples.

Results

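The 10 genes described here make, restrain and break down the polyamines putrescine, spermidine and spermine in mouse kidney. They were chosen by symbol: Odc1, Amd1, Srm and Sms for synthesis, Oaz1, Oaz2 and Azin1 for the control of ornithine decarboxylase, and Sat1, Smox and Paox for catabolism. All 10 were found among the 40879 gene symbols of the count files, and all 10 passed the filter on low counts that left 14665 genes to test. In Old kidneys Odc1 was 3.65-fold lower and Oaz2 1.61-fold lower than in Young kidneys, the other 8 did not pass the test, and neither herbal formula gave a change that passed in any of the 10.

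Kidney RNA of wild-type male C57BL/6 mice was read by QuantSeq, a method that sequences the 3' end of transcripts. The 16 libraries fall into Old+PM (3 libraries), Old+YM (3 libraries), Old (5 libraries, no formula) and Young (5 libraries, 3 months of age). PM stands for Palmijihwang-tang and YM for Yukmijihwang-tang, herbal formulas given orally at 100 mg/kg/day on 5 days of the week between 19 and 24 months of age. The sources used here do not give the sampling age of the Old mice, and 1 passage of the design text names YM where the PM dose is meant. The aged mice had 5 months of acclimatization. The labels do not say whether each library is a separate mouse, so the p-values measure the spread between these libraries, which may be technical.

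Polyamines are small positively charged molecules that bind nucleic acids and are needed for cell growth. Ornithine decarboxylase, the product of Odc1, turns ornithine into putrescine and is the first and a tightly controlled step. Spermidine synthase (Srm) and spermine synthase (Sms) then add aminopropyl groups that come from S-adenosylmethionine after Amd1, its decarboxylase, has acted on it. Antizymes (Oaz1, Oaz2) bind ornithine decarboxylase, send it to the proteasome and reduce polyamine uptake, while the antizyme inhibitor (Azin1) binds antizyme in its place. Sat1 acetylates spermidine and spermine, Paox oxidises the acetylated forms back toward putrescine, and Smox oxidises spermine directly. In mouse kidney, Odc1 is a classic androgen-induced gene of the proximal tubule, and male kidneys hold far more of it than female ones.

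Full-length antizyme is made only when the ribosome skips a base at the stop codon of the first reading frame, a step that polyamines promote. This is the sequence feature that sets both antizyme genes apart from the other members, so the site is shown for each in the sense strand of its GENCODE M21 transcripts, with the codon before the stop and the stop codon TGA in capitals.
Oaz1: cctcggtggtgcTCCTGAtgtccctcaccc
Oaz2: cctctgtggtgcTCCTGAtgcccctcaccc
Of the 30 bases shown, 28 are identical between the antizymes. The counts of 3' ends used here measure the transcript and do not see how often the shift is made.

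The promoters of the members whose values the results turn on are shown next, from 250 bases before to 50 bases after the RefSeq start on the build GRCm38.p6, along the gene's own strand. Capitals mark the GC box GGGCGG, the E-box CACGTG that MYC and MAX bind, and the TATA box TATAAA, on either strand; where boxes overlap their capitals run together.
Odc1 chr12:17544623-17544922 (+): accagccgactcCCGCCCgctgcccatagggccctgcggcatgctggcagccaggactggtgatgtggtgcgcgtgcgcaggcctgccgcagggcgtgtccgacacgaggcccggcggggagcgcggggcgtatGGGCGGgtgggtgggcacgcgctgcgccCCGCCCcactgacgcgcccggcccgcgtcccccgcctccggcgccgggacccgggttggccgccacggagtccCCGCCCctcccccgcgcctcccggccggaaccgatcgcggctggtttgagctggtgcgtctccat
Oaz2 chr9:65676298-65676597 (+): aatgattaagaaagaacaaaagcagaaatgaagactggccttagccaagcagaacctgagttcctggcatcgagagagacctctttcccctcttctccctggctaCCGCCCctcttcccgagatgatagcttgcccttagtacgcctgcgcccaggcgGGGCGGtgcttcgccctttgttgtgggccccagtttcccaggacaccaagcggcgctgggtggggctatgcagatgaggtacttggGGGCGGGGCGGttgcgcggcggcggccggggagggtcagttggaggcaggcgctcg
Sat1 chrX:155216400-155216699 (-): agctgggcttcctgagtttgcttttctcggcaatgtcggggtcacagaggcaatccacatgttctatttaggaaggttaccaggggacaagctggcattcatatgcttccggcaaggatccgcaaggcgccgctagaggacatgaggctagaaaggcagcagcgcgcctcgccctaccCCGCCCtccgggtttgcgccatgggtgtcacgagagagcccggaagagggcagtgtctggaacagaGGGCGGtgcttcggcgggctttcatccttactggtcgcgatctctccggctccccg
The Odc1 window held 4 GC boxes, the Oaz2 window 4, of which 2 overlap, and the Sat1 window 2. A GC box occurred in 35.7% of the 32851 RefSeq promoters of the same length. No E-box or TATA box was matched in these 3 windows, where 7.15% and 13.6% of all promoters held one. Sites outside the windows, such as further into the genes, were not searched. The Odc1 window was 78.0% G and C, above the 95th percentile of all promoters (73.7%). The androgen response element with both arms was in no member's window and in 0.009% of all promoters, and its left arm AGAACA was matched once each in Oaz2 and Sat1 and in 18.97% of all. RefSeq windows were matched for 8 of the 10 members, and Azin1 and Srm are named only.

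Library totals ran from 8223008 to 10914515 counts, and the member with the fewest counts, Smox, had 59 to 141 per library. Values are in CPM, counts scaled to the TMM-scaled size of each library. Mitochondrial transcripts took 14.98% to 18.03% of counts in Old+PM, 17.8% to 24.5% in Old+YM, 18.4% to 22.0% in Old and 18.3% to 27.7% in Young. Log2 CPM of libraries of the same group correlated at 0.945 to 0.977 across the tested genes, and none were copies of each other. None of the cell type marker lists had a member at 0 in every library. Old libraries 4 and 5 stood apart from the rest of Old on scores given with the results they touch.

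**Figure D1:**
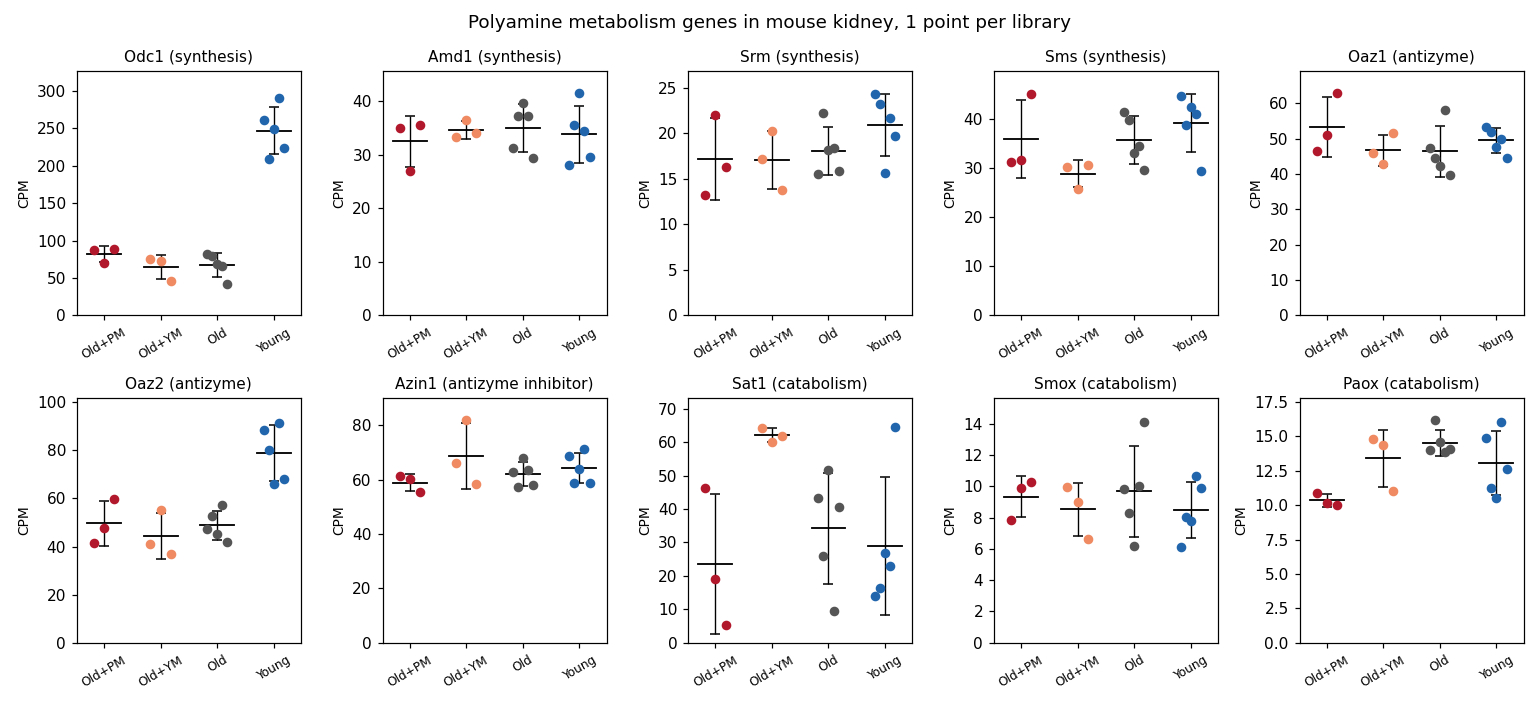
CPM of the 10 members (vertical axes, each from 0) in the groups Old+PM, Old+YM, Old and Young (horizontal axes), 1 point per library, with the mean as a bar and the SD as an error bar. Odc1 and Oaz2 lie lower in all 11 aged libraries than in any Young library, and Sat1 has the widest spread, 5.28 to 64.7 CPM.

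Ageing of the kidney is the first comparison of the design. Odc1 had 81.5, 79.7, 68.4, 66.1 and 41.3 CPM in the Old libraries, against 260.3, 209.1, 249.0, 289.9 and 223.6 CPM in the Young libraries. The groups did not overlap, and Old library 5 was the lowest. Odc1 averaged 67.4 ± 16.1 CPM in Old and 246 ± 31.6 CPM in Young (SD, n = 5 each), a log2 fold change of -1.87 (SE 0.17, 95% confidence interval -2.22 to -1.51) with an adjusted p of 2.32e-06 in edgeR's quasi-likelihood test with Benjamini-Hochberg adjustment over all tested genes. By p it ranked 8 of 14665. Across 21 alternative fits, each library left out included, the value lay between -1.96 and -1.74 and passed in all 21. The 16 proximal tubule markers, measured in the same fit, had a median log2 fold change of -0.16, with 2 higher and 4 lower. For a single gene in bulk tissue, fewer cells of a type and less RNA per cell cannot be told apart.

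Oaz2, the second antizyme, was also lower. It had 47.3, 52.5, 45.3, 57.2 and 41.7 CPM in the Old libraries, against 88.6, 80.0, 65.8, 91.4 and 68.1 CPM in the Young libraries. The groups again did not overlap, with a narrower gap than for Odc1. The means were 48.8 ± 6.10 CPM in Old and 78.8 ± 11.6 CPM in Young (SD, n = 5 each), and the log2 fold change was -0.69 (SE 0.14, 95% confidence interval -0.97 to -0.41, edgeR adjusted p = 0.00236). In a fit with the clock-gene score described below as a covariate, the Oaz2 difference was -0.53 and no longer passed (SE 0.21, edgeR adjusted p = 0.151).

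Both members that passed were lower in Old, 2 of 10, where 13.6% of all tested genes passed and 7.13% passed as lower. Both also had groups that did not overlap, as did 9.19% of all tested genes (4.97% as lower). The scaling moves this background: 949 of 1995 genes that passed were higher in Old under TMM, and 1104 of 1862 under upper quartile scaling, while Odc1 and Oaz2 stayed lower under both. The median log2 fold change of the members was -0.07, beside 0.02 over all tested genes, and the median size without sign was 0.17, beside 0.26. The other 8 are given by role.

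Past Odc1, no step of synthesis passed the test. Amd1, the decarboxylase that prepares the aminopropyl donor, averaged 34.9 ± 4.39 CPM in Old and 33.7 ± 5.36 CPM in Young. Srm averaged 18.03 ± 2.66 CPM in Old and 20.9 ± 3.38 CPM in Young. Sms averaged 35.7 ± 4.90 CPM in Old and 39.3 ± 5.89 CPM in Young (SD, n = 5 each). Their log2 fold changes were 0.05, -0.21 and -0.14, with edgeR adjusted p of 0.845, 0.428 and 0.562, and all 3 overlapped between the groups. A miss of the threshold does not show that levels were alike: for Srm the 95% confidence interval ran from -0.55 to 0.13. The near-identical copy Amd2 had 0 to 5 counts per library.

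Among the regulators of the decarboxylase, Oaz1 and Azin1 did not pass. Oaz1, the major antizyme, averaged 46.4 ± 7.21 CPM in Old and 49.5 ± 3.46 CPM in Young. Azin1 averaged 62.1 ± 4.37 CPM in Old and 64.3 ± 5.66 CPM in Young (SD, n = 5 each). The log2 fold change was -0.09 for Oaz1 and -0.05 for Azin1 (edgeR adjusted p = 0.653 and 0.789). The interval of Oaz1, -0.33 to 0.15, and that of Oaz2 did not meet, but the difference between these genes was not tested. The pseudogene row Oaz1-ps had 0 to 8 counts per library.

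Of the catabolic genes, Smox and Paox overlapped between Old and Young. Smox averaged 9.69 ± 2.91 CPM in Old and 8.49 ± 1.81 CPM in Young, with a log2 fold change of 0.19 (edgeR adjusted p = 0.605). Paox averaged 14.5 ± 0.949 CPM in Old and 13.1 ± 2.35 CPM in Young, with a log2 fold change of 0.15 (edgeR adjusted p = 0.536; SD, n = 5 each). Paox shares 142 exonic bases at its 5' end with Echs1 on the other strand, and Azin1 shares 358 with an antisense gene at its 5' end. The sources used here do not give the strand setting of the counting, so reads from such overlaps cannot be told apart, although a 3' method reads mostly the other end.

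Sat1, the rate-limiting enzyme of polyamine breakdown, varied most between libraries of the 10 members, 12.3-fold from the lowest to the highest of all 16. It had 43.3, 26.0, 51.7, 9.36 and 40.4 CPM in the Old libraries, against 13.9, 16.5, 26.9, 22.9 and 64.7 CPM in the Young libraries. Old library 4 was the lowest of these and Young library 5 the highest, and the groups overlapped. The means were 34.2 ± 16.7 CPM in Old and 29.0 ± 20.6 CPM in Young, and the log2 fold change of 0.25 had an interval of -0.999 to 1.49 (SE 0.57, edgeR adjusted p = 0.829). It was 0.79 without Young library 5 and 0.04 without Old library 3, and -1.67 (SE 0.75, edgeR adjusted p = 0.239) with the clock-gene score as a covariate. Sat1 had 51 to 621 counts per library.

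**Figure D2:**
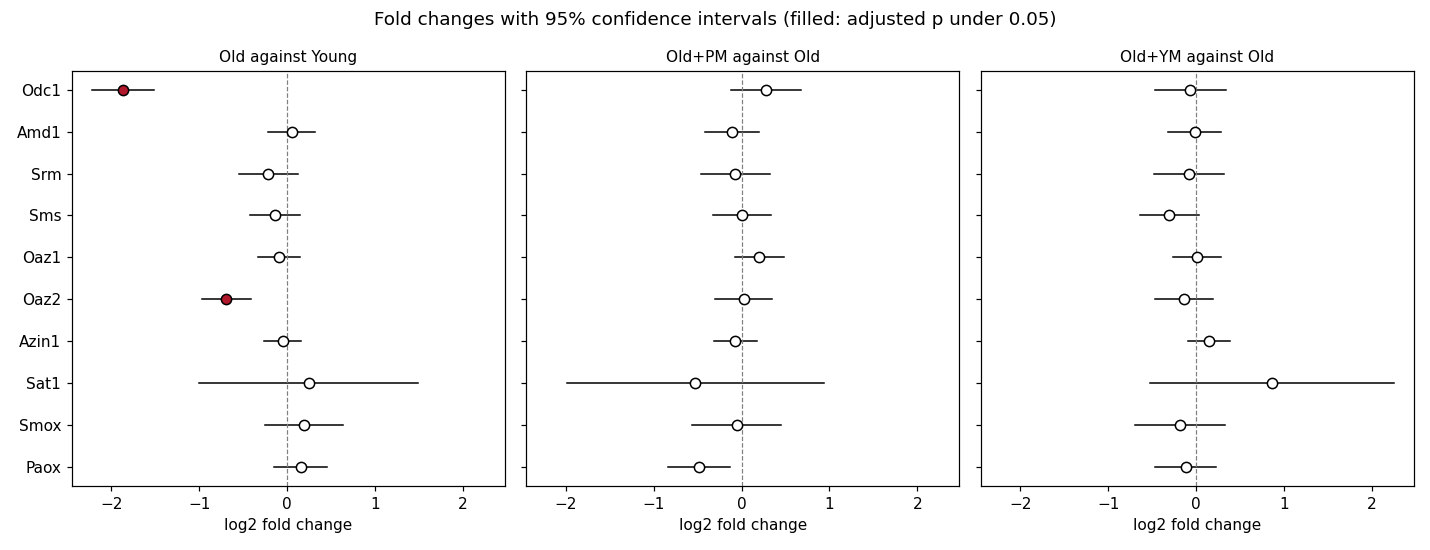
Log2 fold changes (horizontal axes) of the 10 members (vertical axis) in Old against Young, Old+PM against Old and Old+YM against Old, with 95% confidence intervals from the edgeR fit as lines. Filled points mark Odc1 and Oaz2 in Old against Young, and no point is filled in either formula comparison.

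The effect of PM in aged mice was compared next. None of the 10 members passed in Old+PM against Old, and 0% of all 14665 genes did by edgeR. At an unadjusted p under 0.05, 1 member and 6.16% of all tested genes passed, and DESeq2 and limma-voom also gave 0 adjusted calls and 1 member unadjusted. Odc1 had 86.9, 69.4 and 89.0 CPM in Old+PM, and its mean was 81.7 ± 10.8 CPM in Old+PM (n = 3) and 67.4 ± 16.1 CPM in Old (n = 5). The values overlapped, and the log2 fold change of 0.28 (SE 0.19) had an interval of -0.12 to 0.68 with an edgeR adjusted p of 0.863. Oaz2 averaged 49.6 ± 9.47 CPM in Old+PM and 48.8 ± 6.10 CPM in Old, a log2 fold change of 0.02 (interval -0.30 to 0.35). The other 8 members had log2 fold changes between -0.53 (Sat1, interval -1.99 to 0.93) and 0.20 (Oaz1). The Sat1 value was -1.47 without Old+PM library 1 and -0.05 without Old+PM library 3.

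Paox was the member with the unadjusted p under 0.05. It had 10.91, 10.2 and 10.04 CPM in Old+PM, against 14.04, 16.2, 14.6, 13.8 and 14.1 CPM in Old. All 3 Old+PM libraries were lower than every Old library, as were 2.1% of all tested genes, and 4.02% of all genes did not overlap in either direction. The log2 fold change was -0.49 (SE 0.17, unadjusted p = 0.00977), and it failed the correction with an edgeR adjusted p of 0.790. The Young libraries, at 10.5 to 16.1 CPM, overlapped with both.

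The effect of YM was compared in the same way. None of the members passed in Old+YM against Old, and 3 of all 14665 genes did (0.0205%); at an unadjusted p under 0.05 the count was 0 members by edgeR, DESeq2 and limma-voom, beside 9.48% of all genes by edgeR. Odc1 had 75.2, 72.4 and 45.8 CPM in Old+YM, inside the range of Old, with a log2 fold change of -0.07 (SE 0.19, interval -0.47 to 0.34, edgeR adjusted p = 0.944). Oaz2 averaged 44.4 ± 9.74 CPM in Old+YM (n = 3) and 48.8 ± 6.10 CPM in Old (n = 5), a log2 fold change of -0.14 (edgeR adjusted p = 0.809). Sms, the spermine synthase, had 30.3, 25.7 and 30.7 CPM in Old+YM, against 41.5, 39.9, 33.1, 34.6 and 29.7 CPM in Old. The Sms groups overlapped through Old library 5 (log2 fold change -0.31, SE 0.16, edgeR adjusted p = 0.568).

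Sat1 was the member whose Old+YM and Old libraries did not overlap, in a comparison where 9.1% of all genes did not. It had 64.3, 60.1 and 61.8 CPM in Old+YM, all above the highest Old library at 51.7 CPM. The log2 fold change was 0.86 (SE 0.64, edgeR adjusted p = 0.690), with an interval of -0.53 to 2.25.

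Between the formulas, none of the members passed in Old+PM against Old+YM (0% of all genes by edgeR; 0 members at an unadjusted p under 0.05 by edgeR and DESeq2 and 1 by limma-voom, beside 12.8% of all genes by edgeR). The groups did not overlap for Sms, Sat1 and Paox, 3 of 10 members, where 23.8% of all genes did not. Sat1 had 46.4, 19.2 and 5.28 CPM in Old+PM, against 64.3, 60.1 and 61.8 CPM in Old+YM. The Old+YM libraries lay close together and the Old+PM libraries spread over 8.79-fold. The log2 fold change was -1.39 (SE 0.75, edgeR adjusted p = 0.447), and without Old+PM library 1 it was -2.33 (edgeR adjusted p = 0.201). Sms had a log2 fold change of 0.31 and Paox of -0.37 (edgeR adjusted p = 0.455 and 0.418), and without Old+PM library 3 the Sms value was 0.11.

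The treated groups were also set against the Young libraries, which are the same libraries as in the ageing comparison. Odc1 was lower in Old+PM (log2 fold change -1.59, SE 0.20, edgeR adjusted p = 0.000223) and in Old+YM (-1.93, SE 0.21, edgeR adjusted p = 1.85e-05). The highest of the 11 aged libraries, Old+PM library 3 at 89.0 CPM, stood 2.35-fold below the lowest Young library at 209.1 CPM. Oaz2 was lower in Old+PM (-0.67, SE 0.16, edgeR adjusted p = 0.0158) and in Old+YM (-0.83, SE 0.16, edgeR adjusted p = 0.00231), where the highest aged library had 59.9 CPM and the lowest Young library 65.8 CPM. The Oaz2 call in Old+PM was lost without Young library 4 (edgeR adjusted p = 0.0543), without Old+PM library 1 (0.0872) or without Old+PM library 2 (0.100).

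These were 2 of 10 members in Old+PM, where 6.57% of all genes passed (3.64% as lower), and 2 of 10 in Old+YM, where 16.1% did (9.63% as lower). The same 2 members did not overlap with Young, where 15.3% of all genes did not in Old+PM and 26.1% in Old+YM. Under upper quartile scaling the share of higher genes among those that passed moved to 577 of 924 in Old+PM against Young, beside 429 of 963 under TMM, and to 1181 of 2221 in Old+YM against Young, beside 942 of 2354. Sms averaged 28.9 ± 2.80 CPM in Old+YM (n = 3) and 39.3 ± 5.89 CPM in Young (n = 5), a log2 fold change of -0.44 (SE 0.16, unadjusted p = 0.0121) that missed the threshold at an edgeR adjusted p of 0.0643. It passed with the replicate number as a block (log2 fold change -0.54, edgeR adjusted p = 0.0233), with these 2 groups fitted alone (0.0444) and without Young library 5 (0.0346). It was -0.22 with the clock score as a covariate (edgeR adjusted p = 0.737) and -0.20 with the 6-gene score described below (edgeR adjusted p = 0.537).

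Other measures moved with the called members. The 15 tested androgen-responsive kidney genes of a fixed list summed to 18521 to 24011 CPM in Old+PM, 15749 to 18472 CPM in Old+YM, 11627 to 22530 CPM in Old and 33446 to 40289 CPM in Young. In Old against Young, 11 of the 15 were lower and 1, Slc7a12, higher, and Hsd3b4 was listed at 0 in every library. The list does not separate genes that androgen raises from genes that it lowers. Within Old, library 5 was lowest for this sum, for the proximal tubule sum given next, and for Odc1, Oaz2, Oaz1, Amd1 and Sms. The 16 proximal tubule markers summed to 13883 to 16257 CPM in Old+PM, 13836 to 14762 CPM in Old+YM, 12384 to 17155 CPM in Old and 16299 to 18723 CPM in Young, with 2 higher and 4 lower in Old. The part of either in the Odc1 and Oaz2 differences was not tested.

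Markers of other cells differed too. In Old against Young, 10 of 13 macrophage and dendritic cell markers were higher (summed 204 to 1200 CPM in Old and 179 to 223 CPM in Young), as were 3 of 6 B and plasma cell markers, 2 of 6 T and NK cell markers and 5 of 8 injured tubule markers. Old library 5 had the highest macrophage sum, 1200 CPM, beside 204 to 394 CPM in the rest of Old. Its T and NK cell sum was 171 CPM, beside 11.3 to 15.3 CPM in the rest of Old. None of the 9 collecting duct, 6 adipocyte or 5 red blood cell markers passed, and 1 of 8 endothelial markers was higher. Of the 7 thick ascending limb and distal tubule markers, 1 was higher (Slc12a3) and 2 were lower (Pvalb and Calb1). Their part in the members' values was not tested.

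Circadian genes also stood apart by group. A clock score, the mean z-scored log2 CPM of 5 genes of the positive arm minus that of 8 of the negative arm, was -1.21 to -0.0063 in Old+PM, -1.55 to 0.08 in Old+YM, -2.21 to 1.71 in Old and 0.77 to 2.88 in Young. Old library 4 alone of the aged libraries scored in the Young range, at 1.71. Its Odc1 was 66.1 CPM and its Oaz2 57.2 CPM, both below every Young library, and this Oaz2 value was the highest of Old. With this score as a covariate, Odc1 stayed lower in each aged group than in Young and Oaz2 passed in none (log2 fold change -0.52 in Old+PM and -0.67 in Old+YM, edgeR adjusted p = 0.126 and 0.142). Apart from Old library 4 no aged library overlapped with Young on the score, so these fits can hardly tell age and score apart. In Old against Young the SE of Oaz2 rose from 0.14 to 0.21. Over all genes 666 passed there, beside 1995 without the score. The sources used here do not give collection times.

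The libraries also differ along an axis on which Young, Old and Old+PM overlap and Old+YM stands apart. It was scored as the mean z-scored log2 CPM of 6 genes for respiratory chain and ribosomal proteins (Cox7c, Ndufa1, Atp5j, Rpl15, Rps23 and Rpl35a) taken from earlier work on these data. The score was 0.72, -0.28 and -1.70 in Old+PM and 1.03, 1.19 and 1.22 in Old+YM, and it ran from -1.61 to 0.65 in Old and from -1.19 to 0.96 in Young. All Old+YM libraries scored above every other library, so YM and this score cannot be told apart. Old+PM library 3 and Old library 4 were the lowest, the same libraries that had the lowest Sat1. Over the 16 libraries this score and the clock score had a Pearson r of -0.57. A shift with either score as a covariate therefore cannot be assigned to that score alone.

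Within groups, Sat1 rose by 1.10 on the log2 scale per SD of this score (SE 0.058), rank 8 of 14665 genes by p. The use of the score was chosen after the Sat1 values were seen, so the slope describes these libraries and is no independent test. Slopes passed for 3 of 10 members, where 25.7% of all genes passed: Sat1 (edgeR adjusted p = 1.08e-13), Oaz1 (-0.17 per SD, edgeR adjusted p = 0.00397) and Oaz2 (-0.19 per SD, edgeR adjusted p = 0.00791). Odc1 had a slope of -0.04 per SD (SE 0.095).

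With the score as a covariate, the Sat1 log2 fold change in Old+YM against Old was -0.28 (SE 0.14, edgeR adjusted p = 0.653), against 0.86 without it. In Old+PM against Old+YM it was -0.08 with the score and -1.39 without. Old+YM did not overlap with Old or Old+PM on this score, so YM and the score cannot be told apart in these comparisons. In Old+PM against Young, Sat1 passed with the score (log2 fold change -0.47, SE 0.13, edgeR adjusted p = 0.0145) and did not without it (-0.28, edgeR adjusted p = 0.860). Odc1 in Old against Young was -1.86 with the score, beside -1.87 without, and Oaz2 -0.63, beside -0.69, and both passed in each fit.

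**Figure D3:**
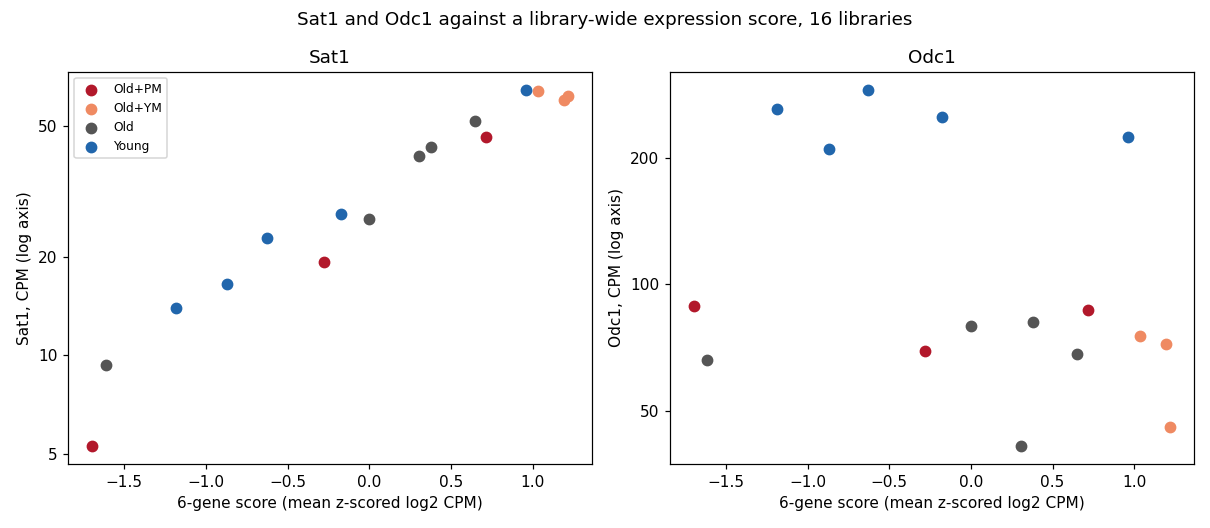
Sat1 and Odc1 in CPM (vertical log axes) against the 6-gene score (horizontal axes), 1 point per library, coloured by group. Sat1 rises with the score across the libraries, with values from 5.28 CPM in Old+PM library 3 to 64.7 CPM in Young library 5. Odc1 falls into a Young band at 209.1 CPM and above and an aged band at 89.0 CPM and below.

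The genes most like each of these members by Pearson r of log2 CPM were taken from 10303 genes of at least 5 CPM in the mean, as a description of libraries that share group and depth. Over all 16 libraries Odc1 was most like Hsd17b11 (r = 0.99), Slc18a1 (0.97), Slco1a1 (0.97), Lpl (0.96) and Slc17a3 (0.96). Hsd17b11, a steroid dehydrogenase of lipid droplets, had 223 to 252 CPM in Old+PM, 160 to 213 CPM in Old+YM, 140 to 258 CPM in Old and 569 to 704 CPM in Young. Over the 11 aged libraries, with Young left out, the 5 were Slc51a (0.96), Mpv17 (0.94), Slc17a3 (0.93), Slc34a3 (0.93) and Chn2 (0.93). Slc17a3, an organic anion transporter, was the gene in both sets.

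Oaz2 over all libraries was most like Sod1 (r = 0.96), Coasy (0.96), Mrpl12 (0.96), Ap2s1 (0.96) and Chchd2 (0.96), and over the aged libraries most like Atpsckmt (0.94), Dync1li2 (0.93), Tssc4 (0.92), Cavin2 (0.92) and Aig1 (0.90). For Sat1, added after its values were seen, Gsr led over all libraries (r = 0.99) and Apba3 over the aged ones (0.99), and Cox7c, a gene of the 6-gene score, was also among the 5 over all (0.98). Among the members themselves, over the 11 aged libraries, Sat1 ran against Oaz1 (r = -0.80), Oaz2 (-0.73) and Sms (-0.63), and Odc1 with Oaz2 had an r of 0.51.

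The genes around the pathway were listed by role, 74 in all, of which 65 were tested. In Old against Young 7 were higher and 9 lower, 24.6% of those tested, beside 13.6% of all genes. In each of the 3 comparisons among aged groups none passed. The list for S-adenosylmethionine supply had the most falls: 5 of 12 tested genes were lower and none higher. This list also holds Ahcy, Ahcyl1 and Ahcyl2 and is wider than the making of S-adenosylmethionine. Mat2a, which makes S-adenosylmethionine outside the liver, averaged 617 ± 41.3 CPM in Old and 915 ± 138 CPM in Young (SD, n = 5 each), with a log2 fold change of -0.57 ( edgeR adjusted p = 0.00187). Ahcy, which removes the product that inhibits methylation, averaged 23.6 ± 3.10 CPM in Old and 40.1 ± 3.13 CPM in Young (-0.76, edgeR adjusted p = 0.000283). Mtr (-0.81), Ahcyl2 (-0.52) and Ahcyl1 (-0.30) were the others, and the last passed in 5 of 21 alternative fits only.

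For transport, 2 of 15 tested genes were higher and 3 lower in Old. Slc22a2, an organic cation transporter of the basolateral membrane, averaged 545 ± 92.4 CPM in Old and 1009 ± 87.0 CPM in Young (SD, n = 5 each; log2 fold change -0.89, edgeR adjusted p = 0.000147). Slc47a1, which exports cations to the urine, and Gpc1, a glypican, were lower by the same test (-0.44 and -0.77, edgeR adjusted p = 0.0213 and 0.0103). The cationic amino acid transporter subunits Slc7a7 and Slc7a9 were higher (0.60 and 0.44, edgeR adjusted p = 0.000358 and 0.0137). The Slc47a1 call was lost when any of Young libraries 1 to 4 was left out. The polyamine pumps Atp13a4 and Atp13a5 were listed at 0 in every library.

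In ornithine and arginine supply, 2 of 9 tested genes were higher. Arg2, the mitochondrial arginase, averaged 2.89 ± 1.998 CPM in Old and 1.05 ± 0.279 CPM in Young (a log2 difference of 1.46, edgeR adjusted p = 0.0194). Nos3, which competes for arginine, averaged 4.94 ± 1.34 CPM in Old and 2.20 ± 0.361 CPM in Young (1.17, edgeR adjusted p = 0.00468; SD, n = 5 each). The Arg2 call was lost without Old library 5 (edgeR adjusted p = 0.0980), without Young library 4 (0.0530), with the clock score as a covariate (0.248) and by limma-voom (adjusted p = 0.0722). In diamine and aldehyde oxidation, 2 of 8 were higher. Aldh1a1, an aldehyde dehydrogenase with the close copy Aldh1a7, averaged 34.1 ± 12.98 CPM in Old and 5.95 ± 1.80 CPM in Young (a log2 difference of 2.50, SE 0.26, edgeR adjusted p = 1.83e-05). Aoc1, which oxidises putrescine, had a log2 fold change of 1.26 (edgeR adjusted p = 0.0435), a call lost in 11 of 21 alternative fits.

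Of the remaining roles in Old against Young, methylthioadenosine salvage had 1 of 8 lower (Kyat1, log2 fold change -0.36, edgeR adjusted p = 0.0376), and the MYC and MAX group had 1 of 7 higher (Max, 0.46, edgeR adjusted p = 0.0230). Kyat1 passed in 11 and Max in 15 of 21 alternative fits. With the clock score as a covariate, 5 of the 16 related genes called in Old against Young still passed, namely Ahcy, Ahcyl1, Aldh1a1, Slc22a2 and Slc7a7. Over all tested genes, 666 passed in that fit, beside 1995 without the score. None of the 4 genes of hypusine and eIF5A, the translation factor modified with spermidine, passed, and none of the 2 tested antizyme and inhibitor relatives did, with Oaz3 and Satl1 at 0 in every library. Set against Young, 7 related genes were higher and 5 lower in Old+PM (18.5% of those tested, beside 6.57% of all genes), and 10 were higher and 10 lower in Old+YM (30.8%, beside 16.1%). With the clock score as a covariate, 4 of these 12 passed in Old+PM and 3 of these 20 in Old+YM, and with the 6-gene score 12 of 12 and 8 of 20. Over all tested genes, 1036 passed in Old+PM with the clock score and 2159 with the 6-gene score, beside 963 with neither. In Old+YM these counts were 242 and 1013, beside 2354 with neither. Agmat, an agmatinase, averaged 8.85 ± 0.995 CPM in Old+PM (n = 3) and 3.84 ± 0.996 CPM in Young (n = 5; log2 fold change 1.201, edgeR adjusted p = 0.00439). Oat, which interconverts ornithine and glutamate semialdehyde, averaged 107 ± 11.3 CPM in Old+YM and 74.0 ± 5.74 CPM in Young (0.53, edgeR adjusted p = 0.00228). Dohh, the last enzyme of hypusine formation, averaged 31.3 ± 3.47 CPM in Old+YM and 56.5 ± 10.1 CPM in Young (-0.85, edgeR adjusted p = 0.00615). With the clock score as a covariate Oat missed the threshold (edgeR adjusted p = 0.0805), and Dohh missed it with the clock score (-0.37, edgeR adjusted p = 0.491) and with the 6-gene score (-0.39, edgeR adjusted p = 0.0944).

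**Figure D4:**
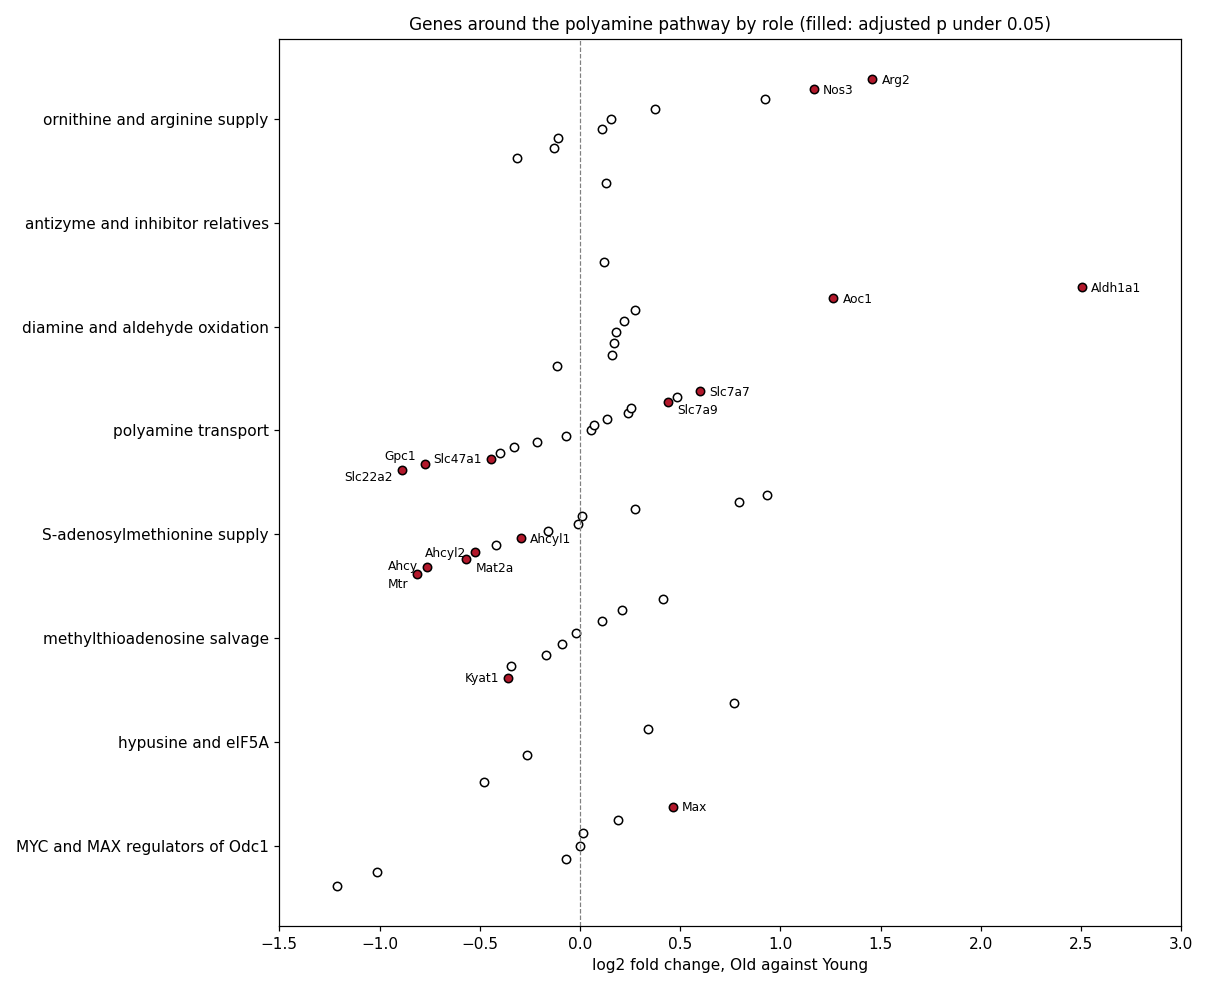
Log2 fold changes in Old against Young (horizontal axis) of the 65 tested genes around the polyamine pathway, by role (vertical axis), 1 point per gene. The 16 filled and named points passed at an adjusted p under 0.05, 7 to the right of 0 and 9 to the left, with Aldh1a1 farthest right at 2.50.

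A small RNA row lies inside Odc1. The snoRNA Gm22748 (chromosome 12, 17546146 to 17546281, plus strand, in the first intron of Odc1 with 0 exonic bases shared) has a row of its own. This row was chosen after its values were seen. It had 36.6, 16.9, 28.7, 47.6 and 16.1 CPM in the Old libraries, against 117.2, 138.4, 63.7, 91.8 and 45.3 CPM in the Young libraries. The groups overlapped only through Old library 4 and Young library 5, and the log2 fold change was -1.65 (SE 0.35, edgeR adjusted p = 0.00743). The row lies within Odc1 on the same strand, so its counts cannot tell the snoRNA from intronic RNA of Odc1. Odc1 itself spans 17544794 to 17551505 on the plus strand of chromosome 12, Oaz2 65668001 to 65690300 on the plus strand of chromosome 9 and Sat1 155213132 to 155216449 on the minus strand of chromosome X (GRCm38, GENCODE M21).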

How the data were processed

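The authors deposited raw read counts per gene symbol, 1 file per library, with no normalization. Per the submitters' processing notes, Bowtie2, bedtools and the mm10 build were used. The sources used here do not give versions, the annotation, the strand setting or the rule for reads that align to several places. From these counts, edgeR 4.0.16 in R 4.3.3 (limma 3.58.1, DESeq2 1.42.0) was run: filterByExpr with a minimum count of 10, TMM scaling, 1 robust quasi-likelihood fit of all 16 libraries with a term for group, two-sided tests, and Benjamini-Hochberg adjustment over the 14665 genes tested at a threshold of 0.05. All 16 libraries enter through their titles and treatment labels. Standard errors come from the fold change and the F statistic. The fit was tested on simulated data. Log2 CPM used a prior count of 2.

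The 10 members, the 74 related genes by role, the clock and androgen lists and the cell type markers were chosen with earlier results of these data known. The text names all members, up to 5 passing related genes per role by size of change, and the 5 genes of at least 5 CPM most like each member that passed; the snoRNA in Odc1, the like genes of Sat1 and the 6-gene score were added after their values were seen. Alternatives covered scaling, library size, filter, tool, groups in the fit, replicate block, both scores and each library left out. Totals ran from 8223008 to 10914515 counts; intervals cover the spread between libraries. Promoters are from RefSeq (GRCm38.p6), and gene positions and antizyme transcripts from GENCODE M21.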

Additional observations from a re-analysis of the deposited data

Results flagged for a closer look

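Of 20 groups of 5 libraries tested among the members (10 genes in Old and in Young), 1 held a library far from the others: Sat1 in Young library 5, at 64.7 CPM, beside 13.9 to 26.9 CPM in the other Young libraries. Chance gives about 1 such flag in 20 groups. Young library 5 also had the highest 6-gene score of Young, 0.96, beside -1.19 to -0.18 in the other 4. The slope of Sat1 on this score given above includes this library. The part of the axis in this value was not tested apart from that slope.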

How the results depend on the processing

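The counts of members that passed stayed at 2 in Old against Young and at 0 in the 3 comparisons among aged groups under every alternative but 1: with the clock score as a covariate the count was 1 in Old against Young, 1 in Old+YM against Young and 1 in Old+PM against Young, and Odc1 was the member that remained. Leaving out each library in turn gave 2 to 2 in Old against Young, 2 to 3 in Old+YM against Young and 1 to 2 in Old+PM against Young. Odc1 passed in all 21 fits of Old against Young (log2 fold change -1.96 to -1.74), and Oaz2 in 20 of them (-0.74 to -0.53). With the replicate block the count was 2 in Old against Young, 0 in each comparison among aged groups, 3 in Old+YM against Young and 2 in Old+PM against Young. Libraries that share a replicate number did not deviate together (r of deviations -0.30 to 0.16 in 20 pairs), and 4 of 16 correlated best with their own number. With the 6-gene score, an alternative chosen after seeing the data, Old+PM against Young had 3. DESeq2 and limma-voom each gave 2 in every comparison with Young and 0 among the aged groups. Of 1140 member values under alternatives, 6 lost a call, 4 gained one, and 38 moved by over 1 SE without a call. The sign changed in 74 of the 1140, in values that passed neither before nor after, among them Sat1 (Old against Young -1.67 and Old+YM against Young -0.50 with the clock score) and Oaz1 (Old against Young 0.28 with the clock score). No value with a call changed sign, and the cause of these shifts was not tested. With 3 libraries each in Old+PM and Old+YM, the intervals leave room for changes of the size given beside each gene.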
